A study of Oryza sativa with 9 samples.

Results

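The loci described here are 193 rice genes whose transcripts were abundant in developing seeds of the OsTudor-SN mutant line EM1084, and much less so in seeds of that line carrying an added wild type copy of the gene and in wild type seeds. They were chosen by the group means of RPKM (reads mapped to a locus, scaled by transcript length and by the mapped total of the library) as deposited, among 31263 listed loci. The EM1084 mean had to be at least 10 RPKM, at least 4 times the mean of the complemented line and at least 4 times the wild type mean. Of 195 loci that met these conditions, the neighbours LOC_Os01g72900 and LOC_Os01g72910 were left out by choice. EM1084 against each of the other genotypes therefore chose the genes, and the values of these contrasts are given as a description with no test.

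RNA came from dehulled seeds, 10 to 14 days old, with 3 biological repeats per genotype. EM1084 carries the amino acid change E503K in OsTudor-SN. The line labelled pHL8042/EM1084 is a transgenic of EM1084 that received wild type OsTudor-SN, and is called the complemented line below. The third genotype is the wild type, and all plants were kept in chambers at 27 °C on a daily cycle of 12 h light and 12 h dark. The sources used here do not give the promoter of the transgene, the number of transgenic lines, the source of the wild type or whether the seeds of a repeat were pooled from several plants.

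Tudor-SN is a conserved protein that binds RNA through staphylococcal nuclease-like domains and carries a Tudor domain. In the rice endosperm it is known as part of the machinery that carries storage protein mRNAs along the cytoskeleton to the endoplasmic reticulum (ER). In plants it is also known from stress granules and processing bodies, where mRNAs are stored or degraded. The table pairs its loci with no gene name, and 0 of its identifiers occur in the RefSeq gene table at hand, so the genes are given by locus and no role is assigned to them.

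Mapped totals derived from the table ran from 12805472 to 15630870 reads in EM1084, from 17022681 to 18449248 in the complemented line and from 5778627 to 10551055 in wild type. Wild type values of low genes thus rested on fewer reads. The OsTudor-SN locus LOC_Os02g32350, assigned from general knowledge of rice loci, read 206 to 221 RPKM in EM1084, 348 to 389 RPKM in the complemented line and 88.4 to 97.6 RPKM in wild type. RPKM are relative to the mapped total, and most genes were higher in EM1084 on this scale. Over the 15450 genes with at least 1 RPKM in at least 3 libraries, the median difference of log2(RPKM + 1) was 0.34 for EM1084 minus the complemented line, 1.06 for EM1084 minus wild type and 0.73 for the complemented line minus wild type. After median-of-ratios scaling, which sets the typical gene equal between libraries, these medians were 0.01, 0.10 and 0.10. With the same conditions on values so scaled, 67 of the 193 genes were kept and no others entered. In RNA from whole seeds, a change in the number of cells of a type and a change of RNA per cell cannot be told apart.

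The genes covered a wide range of levels in the mutant. Their EM1084 means ran from 10.1 to 409 RPKM with a median of 24.8 RPKM. There were 77 genes from 10 to 20 RPKM, 71 from 20 to 50 RPKM, 24 from 50 to 100 RPKM and 21 above that. The complemented line had a median of 3.00 RPKM over the same genes, with 32 of them at 10 RPKM or more, and wild type had a median of 1.82 RPKM, with 18 at 10 RPKM or more. Summed over the 193 genes, the level was 8990, 9285 and 9288 RPKM in the EM1084 libraries, against 1380, 1309 and 1317 RPKM in the complemented line and 765, 744 and 727 RPKM in wild type. The genes together took 1.43% ± 0.0140 of the reads in listed loci in EM1084, 0.207% ± 0.00292 in the complemented line and 0.125% ± 0.00416 in wild type (SD, n = 3 each).

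All 193 genes had each EM1084 library above each of the other 6, as did 49.6% of all 15450 genes tested, and since the conditions used these groups nothing is read from it. The lowest EM1084 value was 2.27 to 1401 times the highest value of the other libraries, with a median of 5.14. The EM1084 mean was 4 to 5 times the higher of the other 2 means in 44 genes, 5 to 10 times in 94, 10 to 30 times in 29 and more than that in 26. The EM1084 libraries were close to each other. Their coefficient of variation had a median of 7.76% in the 193 genes and 6.91% in the other 5686 loci with an EM1084 mean of at least 10 RPKM. The highest value fell in EM1084 library 1 for 67 genes, in library 2 for 54 and in library 3 for 72, so no single library carried the set. In 9 genes the highest EM1084 library exceeded 1.5 times the lowest.

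The most abundant gene of the set was LOC_Os01g53520 (chromosome 1, 30738697 to 30740729, plus strand). It read 379, 389 and 457 RPKM in EM1084, 74.2, 73.3 and 78.7 RPKM in the complemented line and 27.9, 28.8 and 30.2 RPKM in wild type. The 3 genotypes did not overlap, and the complemented line stood between EM1084 and wild type. LOC_Os04g17660 on chromosome 4 read 322, 349 and 302 RPKM in EM1084, 61.8, 55.3 and 52.6 RPKM in the complemented line and 47.5, 45.2 and 43.7 RPKM in wild type. LOC_Os07g41290 (chromosome 7) had 198 ± 16.2 RPKM in EM1084, 24.6 ± 1.59 in the complemented line and 17.6 ± 0.627 in wild type. In both of these genes the complemented libraries lay close above the wild type ones. LOC_Os08g04130 (chromosome 8) had the smallest spread between EM1084 libraries of the 12 most abundant (coefficient of variation 2.17%), with 203, 195 and 195 RPKM in EM1084, 42.1, 40.7 and 37.9 RPKM in the complemented line and 12.8, 14.2 and 13.3 RPKM in wild type.

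LOC_Os04g52504 (chromosome 4, 31219819 to 31221018, minus strand) stood apart among the abundant genes by its low level in both other genotypes. It read 221, 281 and 224 RPKM in EM1084, 5.37, 4.31 and 3.21 RPKM in the complemented line and 0.707, 0.538 and 0.430 RPKM in wild type. The EM1084 mean was 56.3 times the mean of the complemented line and 434 times the wild type mean, which rested on 12 reads. LOC_Os03g02070 (chromosome 3, 656450 to 657834, minus strand) had the opposite order of the lower 2 genotypes. It read 188, 168 and 186 RPKM in EM1084, 14.1, 11.4 and 11.9 RPKM in the complemented line and 43.8, 46.5 and 35.5 RPKM in wild type. Here the complemented libraries were the lowest of all 9.

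**Figure D1:**
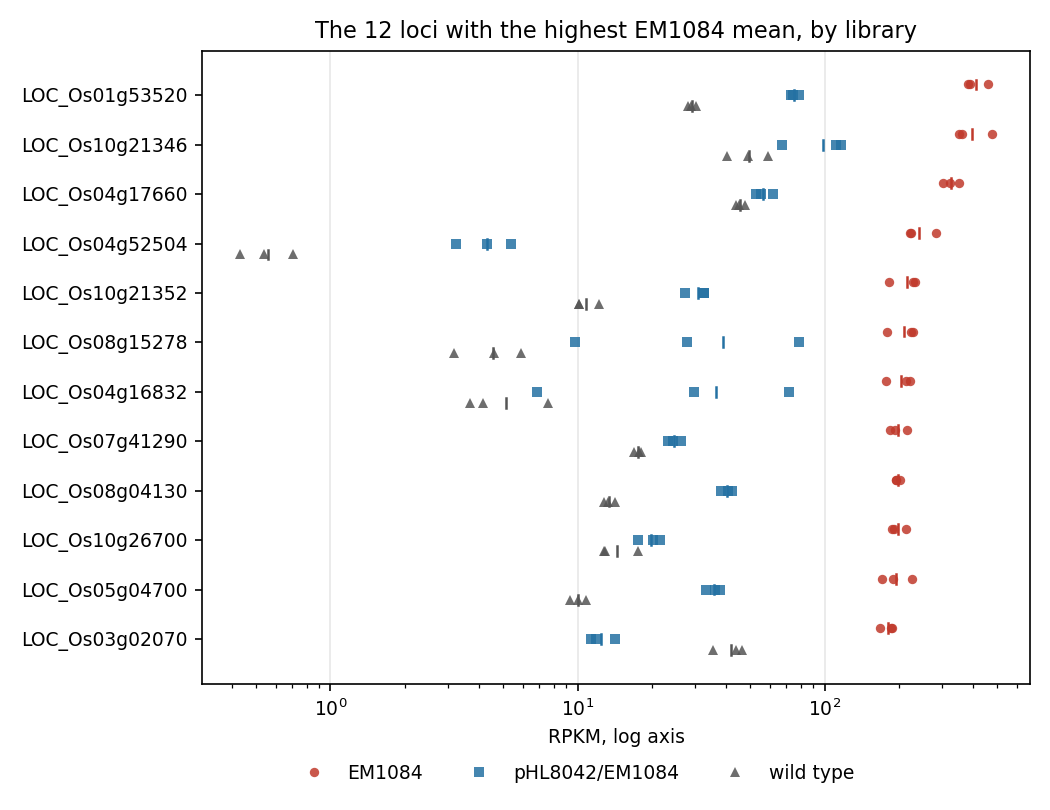
RPKM on a log axis for the 12 loci with the highest EM1084 mean, with 1 point per library and a tick at each group mean (EM1084 circles, pHL8042/EM1084 squares, wild type triangles). All EM1084 points lie above the others, and LOC_Os03g02070 at the foot is the 1 locus of the 12 with the complemented libraries under wild type.

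Some genes of the set were nearly silent outside EM1084. In 32 genes both other means were under 1 RPKM. In 13 genes no read was found in any wild type library, while none of the 193 was without reads in the complemented line. In those 13 the EM1084 mean ran from 10.3 to 107 RPKM, which is at least 99.1-fold to at least 750-fold higher than wild type when wild type is put at a floor of 3 reads over its 3 libraries. Their means in the complemented line ran from 0.0101 to 3.48 RPKM. These limits cover counting error only, since reads that carry no molecular identifier may be copies of 1 molecule. They also take reads as independent counts. Of the derived read numbers from 1 to 20, 58.6% to 72.4% were even, depending on the library. Low counts may thus not be single independent reads, and the limits may be too high.

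LOC_Os01g43750 (chromosome 1, 25066171 to 25068299, plus strand) had the largest ratio of the EM1084 mean to the higher of the other 2 means. It read 44.6, 42.4 and 42.3 RPKM in EM1084, had a single read in complemented library 2 (0.0302 RPKM) and was at 0 in the other 2 complemented libraries and in all of wild type. The 3370 EM1084 reads against 1 read in the complemented line give a ratio of 4137, with an exact 95% counting interval of 742 to 163438. This interval takes reads as independent counts, so it may be too narrow. Next came LOC_Os01g41810 on the same chromosome (23673292 to 23675869, minus strand), with 47.8, 46.4 and 44.8 RPKM in EM1084, 0.207, 0.135 and 0 RPKM in the complemented line and 0 in wild type. LOC_Os11g10470 on chromosome 11 read 62.9, 65.1 and 74.5 RPKM in EM1084, 0, 0.154 and 0.834 RPKM in the complemented line and 0 in wild type. Its 12 complemented reads sat mostly in 1 library. LOC_Os09g39960 on chromosome 9 had the most reads of the 8 genes with the largest ratios, at 47.6, 44.5 and 45.5 RPKM in EM1084, 0.424, 0.438 and 0.200 RPKM in the complemented line and 0, 0.0919 and 0 RPKM in wild type. The other 4 of these genes, LOC_Os11g44630, LOC_Os02g15460, LOC_Os01g06220 and LOC_Os03g52720, had EM1084 means of 10.3 to 34.6 RPKM and complemented means of 0.0663 to 0.230 RPKM.

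**Figure D2:**
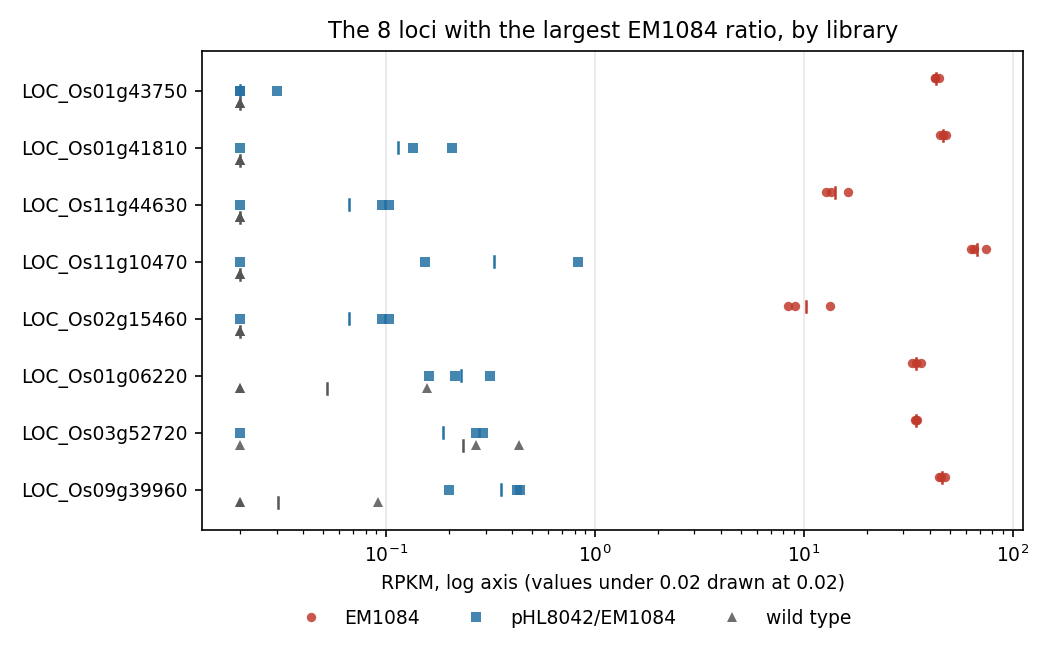
RPKM on a log axis for the 8 loci with the largest ratio of the EM1084 mean to the higher of the other 2 means, with 1 point per library and ticks at group means, and values under 0.02 drawn at 0.02. EM1084 points lie at 8.36 RPKM or above, and every other point lies under 1 RPKM.

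The genes nearest the limits of the selection differed little from the loci just outside it. LOC_Os05g14240 and LOC_Os04g42590 were the last inside the lower level, both with EM1084 means of 10.1 RPKM, while LOC_Os08g41440 and LOC_Os11g12330 were just outside with 9.81 and 9.75 RPKM. For the ratio to wild type, LOC_Os01g65986 (4.10) and LOC_Os03g02070 (4.31) were inside, and LOC_Os07g07990 (3.92) and LOC_Os09g25720 (3.87) outside. For the ratio to the complemented line, LOC_Os10g21346 (4.02) and LOC_Os03g18820 (4.03) were inside, and LOC_Os01g34410 (just under 4) and LOC_Os05g10625 (3.99) outside. LOC_Os10g21346 averaged 396 ± 70.7 RPKM in EM1084, against 98.4 ± 27.3 RPKM in the complemented line (SD, n = 3 each), so its place in the set rests on a ratio within the spread of its libraries.

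The complemented line was also compared with wild type, a contrast that the selection did not set beyond capping both means. The low level in the complemented line was itself a condition of the selection. An effect of the added OsTudor-SN copy and other differences between these lines cannot be told apart. On RPKM as deposited, 117 of the 193 genes (60.6%) were higher in the complemented line than in wild type, 16 (8.29%) were lower and 60 (31.1%) did not pass (limma on log2(RPKM + 1), adjusted p under 0.05 over all 15450 genes tested). Among all genes tested 72.0% were called higher and 7.37% lower. Here the share called higher was under that of all genes and the share called lower was near it. The median log2 fold change was 0.52 over the 193 genes, against 0.73 over all genes tested. Every member could pass the limit of 1 RPKM in 3 libraries through EM1084 alone. A fit of the complemented and wild type libraries alone tested 155 members, with 62.6% higher against 72.8% of all genes. With no limit, 57.5% of members against 39.3% of all genes were higher, and 8.29% against 3.90% lower. The comparison with all genes thus depended on this limit, which the scalings below keep. Median-of-ratios scaling changed the split to 44 higher (22.8%) and 52 lower (26.9%), against 29.5% higher and 26.5% lower over all genes tested, with medians of 0.04 over the 193 genes and 0.08 over all genes. Under quantile normalization the split was 41 higher (21.2%) and 56 lower (29.0%), against 28.3% and 25.1% over all genes tested, and the median was -0.07 over the 193 genes and 0.05 over all genes. Under both scalings the share called lower was near that of all genes. The direction of the set as a whole therefore depended on scaling. The excess of the complemented line over wild type was taken as a percentage of the excess of EM1084 over wild type. It had a median of 5.996% and quartiles of 0.883% and 11.1%, and its highest value was 23.0%. Capping both means confined this percentage to small values in every member, so nothing is read from its size. In 34 genes it was negative.

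**Figure D3:**
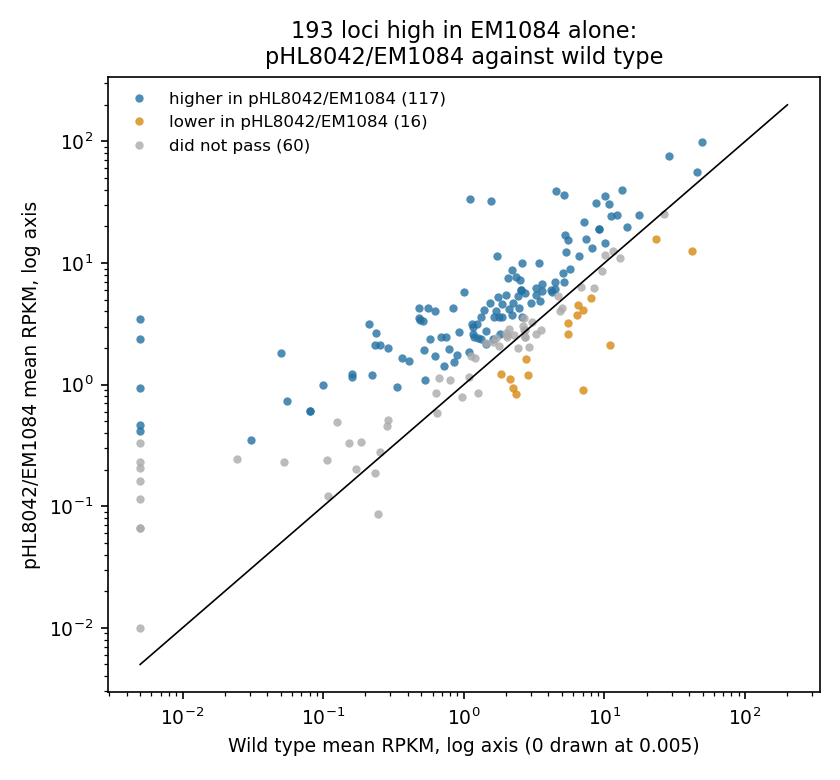
Mean RPKM of the 193 loci in pHL8042/EM1084 (vertical) against wild type (horizontal), both on log axes with 0 drawn at 0.005, coloured by the limma call on RPKM as deposited. The line marks equal means, and 117 loci were called higher, 16 lower and 60 neither.

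Among the genes called higher, LOC_Os03g29240 (chromosome 3, 16628546 to 16632077, plus strand) had the smallest adjusted p. It read 34.0, 28.8 and 30.8 RPKM in the complemented line and 9.01, 9.14 and 8.10 RPKM in wild type, without overlap (log2 fold change 1.72, SE 0.09, limma adjusted p = 7.8e-09), next to 148, 135 and 138 RPKM in EM1084. LOC_Os08g04130, described above, had a log2 fold change of 1.51 (SE 0.08, limma adjusted p = 8.5e-09), and LOC_Os01g53520 one of 1.35 (SE 0.09, limma adjusted p = 3.4e-08). In these genes the complemented line stood between EM1084 and wild type, as the selection and the call require of the means. LOC_Os10g02750 (chromosome 10, 1082910 to 1084984, plus strand) had no wild type read and 3.24, 3.21 and 4.01 RPKM in the complemented line, against 61.7, 57.2 and 52.9 RPKM in EM1084 (complemented minus wild type, limma adjusted p = 1.4e-08). LOC_Os05g04700 on chromosome 5 read 33.2, 37.9 and 36.0 RPKM in the complemented line and 10.9, 10.1 and 9.30 RPKM in wild type (log2 fold change 1.73, SE 0.11, limma adjusted p = 2.8e-08). Each of these 5 genes was also called higher under median-of-ratios scaling. Every complemented library lay above every wild type library in 112 of the 193 genes, next to 71.2% of all genes tested.

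The 16 genes called lower were highest in EM1084 and lowest in the complemented line, an order of means set by the selection and the call. Every complemented library was below every wild type library in each of them and in no other gene of the set, and the share over all genes tested was 7.51%. Their means ran from 11.9 to 181 RPKM in EM1084, from 0.833 to 15.8 RPKM in the complemented line and from 1.84 to 41.9 RPKM in wild type. LOC_Os03g02070 had the smallest adjusted p, with a log2 fold change of -1.67 (SE 0.12, limma adjusted p = 5.2e-08). LOC_Os02g52010 (chromosome 2, 31840427 to 31841847, minus strand) had the largest change. It read 59.8, 67.9 and 63.0 RPKM in EM1084, 0.546, 1.22 and 0.951 RPKM in the complemented line and 9.27, 5.78 and 6.21 RPKM in wild type, a log2 fold change of -2.08 between the last 2 (SE 0.17, limma adjusted p = 2.5e-07). The complemented libraries of this gene all stood far under the lowest wild type library. LOC_Os06g50490 (chromosome 6, 30568515 to 30571159, minus strand) read 53.2, 50.8 and 65.1 RPKM in EM1084, 1.49, 2.73 and 2.09 RPKM in the complemented line and 14.5, 8.74 and 9.77 RPKM in wild type (log2 fold change -1.94, SE 0.18, limma adjusted p = 9.2e-07). LOC_Os03g16260 and LOC_Os09g31040 changed less, with log2 fold changes of -0.82 (limma adjusted p = 9.8e-05) and -0.62 (limma adjusted p = 0.00042). All 16 were called lower under median-of-ratios scaling as well. That scaling lowered the complemented line relative to wild type, so it could hardly remove these calls and is no support for them. The calls of LOC_Os02g44530 and LOC_Os01g12720 depended on single libraries. LOC_Os02g44530 had a limma adjusted p of 0.13 without complemented library 2, 0.070 without wild type library 1 and 0.061 without wild type library 2, and it also missed the threshold with a pseudocount of 5 (0.12) and in a fit of the complemented and wild type libraries alone (0.067). LOC_Os01g12720 had a limma adjusted p of 0.066 without complemented library 1 and 0.075 without wild type library 1.

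**Figure D4:**
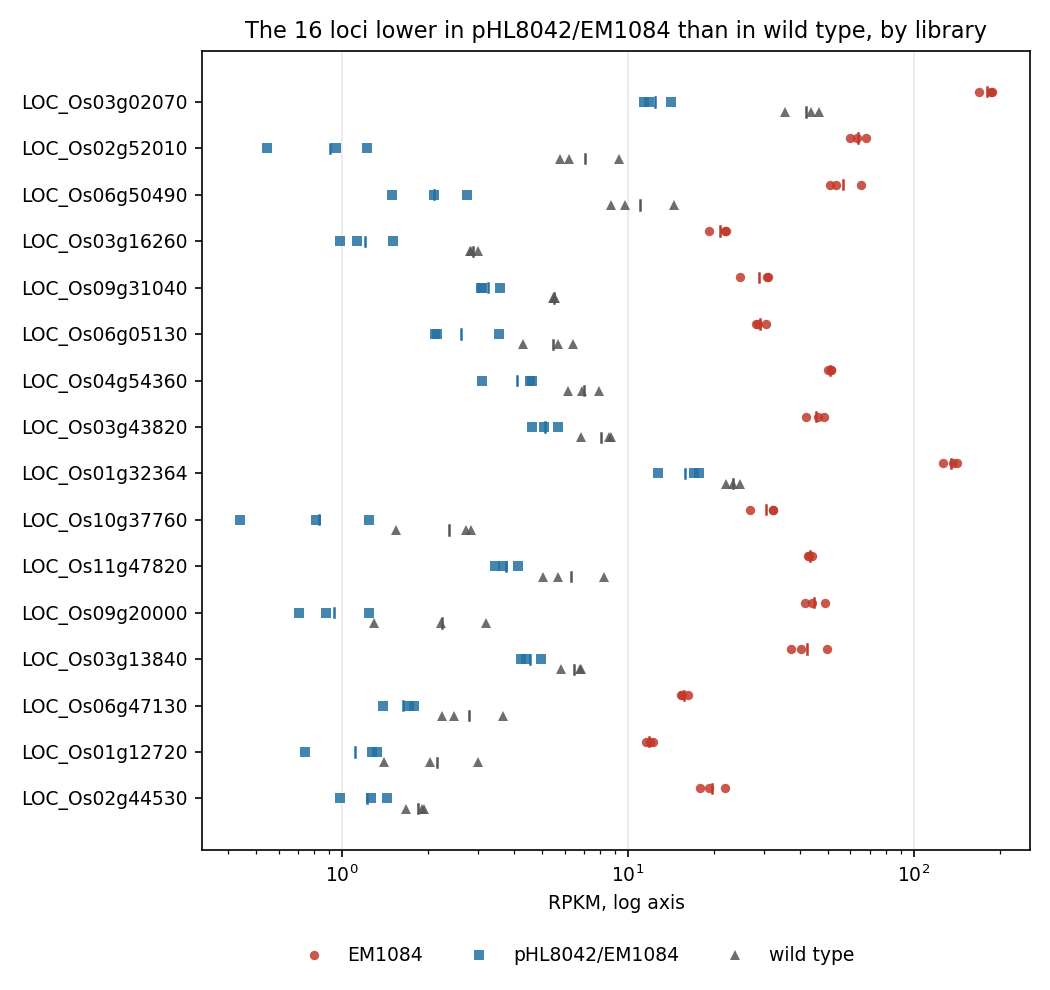
RPKM on a log axis for the 16 loci called lower in pHL8042/EM1084 than in wild type, ordered by adjusted p, with 1 point per library and ticks at group means (EM1084 circles, pHL8042/EM1084 squares, wild type triangles). EM1084 is highest and the complemented line lowest at each locus, an order of means set by the selection and the call.

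Of the 60 genes that did not pass, 24 had means under 1 RPKM in both genotypes, where few reads were at hand. Their median was 1.87 RPKM in the complemented line and 1.35 RPKM in wild type. A missed call does not show that the genotypes were alike for these genes.

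The genes lay on all 12 chromosomes, 99 on the plus strand and 94 on the minus strand. Per 100 loci with an EM1084 mean of at least 10 RPKM there were 3.28 of them over the whole genome. Chromosome 3 held the most, 41 of 880 such loci (4.66 per 100). Chromosome 11 held 14 of 244 (5.74 per 100) and chromosome 10 held 14 of 293 (4.78 per 100), while chromosome 2 held 13 of 724 (1.80 per 100). Of the 13 genes without a wild type read, 4 were on chromosome 11 and 3 on chromosome 10. These shares are a description, with no test.

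**Figure D5:**
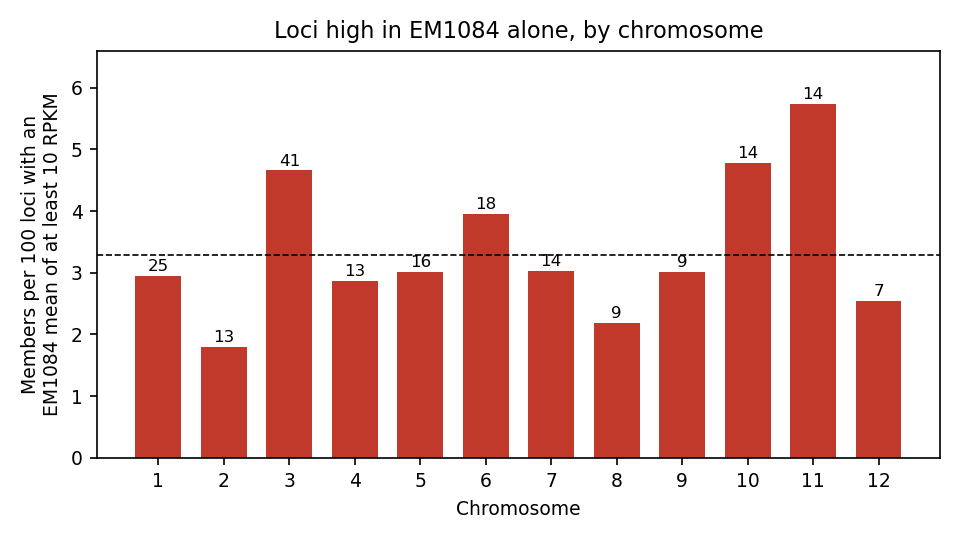
Members of the set per 100 loci with an EM1084 mean of at least 10 RPKM, by chromosome, with the number of members above each bar. The dashed line is the genome-wide value of 3.28, and chromosomes 3, 6, 10 and 11 lie above it.

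There were 7 pairs of members next to each other in the table, 6 of them on the same strand. LOC_Os11g12300 and LOC_Os11g12320 (chromosome 11, 6872037 to 6873056 and 6875946 to 6877418, plus strand) are both nearly silent outside the mutant. The first read 21.5, 23.5 and 24.2 RPKM in EM1084, 0.163, 0 and 0.461 RPKM in the complemented line and 0 in wild type. The second read 28.7, 23.2 and 23.6 RPKM in EM1084, 0, 0.221 and 0.518 RPKM in the complemented line and 0, 0.0734 and 0 RPKM in wild type. The locus that follows, LOC_Os11g12330, missed the lower level with 9.75 ± 1.12 RPKM in EM1084, against 0.733 ± 0.289 in the complemented line and 0.447 ± 0.0826 in wild type. Another close pair, LOC_Os10g31320 and LOC_Os10g31420 on chromosome 10, had other loci between them. They read 99.3, 93.4 and 91.1 RPKM and 104, 90.1 and 127 RPKM in EM1084, with complemented values up to 2.62 and 1.51 RPKM and no wild type read. Both pairs, each within a short stretch of its chromosome, share the same pattern of high mutant and near-zero other values, and were picked out after their values were seen. In all, 22 members had the next member within 100 kb, and such pairs did not all share this pattern. LOC_Os10g21346 and LOC_Os10g21352, on the same strand, had means of 98.4 and 30.8 RPKM in the complemented line and 49.6 and 10.8 RPKM in wild type.

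On chromosome 3, LOC_Os03g58870 and LOC_Os03g58880 (minus strand, 947 bases apart) had EM1084 means of 22.1 ± 4.59 and 16.2 ± 1.40 RPKM, complemented means of 4.25 ± 0.740 and 1.52 ± 0.199 RPKM and wild type means of 0.836 ± 0.0602 and 0.847 ± 0.205 RPKM. LOC_Os03g60560 and LOC_Os03g60570 (plus strand, 2594 bases apart) had 15.8 ± 1.49 and 14.2 ± 2.30 RPKM in EM1084, 1.87 ± 0.359 and 1.098 ± 0.173 RPKM in the complemented line and 1.096 ± 0.149 and 0.532 ± 0.369 RPKM in wild type. Members of both pairs had similar levels in EM1084. Another 2 pairs on one strand were less alike in level, LOC_Os03g29190 with 40.3 ± 2.70 RPKM in EM1084 beside LOC_Os03g29240 with 140 ± 6.52, and LOC_Os05g07650 with 10.5 ± 1.06 beside LOC_Os05g07670 with 37.8 ± 1.42. LOC_Os04g54360 and LOC_Os04g54370 on chromosome 4 point towards each other with their ends 114 bases apart. They had 50.8 ± 0.632 and 18.0 ± 0.405 RPKM in EM1084, 4.08 ± 0.859 and 0.279 ± 0.127 RPKM in the complemented line and 7.01 ± 0.903 and 0.255 ± 0.146 RPKM in wild type.

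Reads of a few members may belong in part to other loci. LOC_Os04g16828 and LOC_Os08g15276 span 372 bases each on chromosomes 4 and 8, and LOC_Os04g16832 and LOC_Os08g15278 span 411 bases each beside them. The EM1084 values within each of these pairs differed by at most 6.07% and 3.96%. They may be near-identical copies that share reads, which was not tested, since no sequence was used. In complemented library 2 the longer loci differed more, at 6.86 RPKM for LOC_Os04g16832 and 9.76 RPKM for LOC_Os08g15278. LOC_Os08g15276 read 128, 234 and 92.5 RPKM in EM1084, 28.9, 33.9 and 34.1 RPKM in the complemented line and 2.04, 1.74 and 0.930 RPKM in wild type. LOC_Os08g15278 read 229, 223 and 179 RPKM in EM1084, 78.8, 9.76 and 27.7 RPKM in the complemented line and 4.61, 3.16 and 5.89 RPKM in wild type. The twin loci varied widely, the first between EM1084 libraries and the second between complemented ones. A further 11 members overlap another listed locus, 10 of them on the opposite strand, and the sources used here do not say whether reads were counted by strand. The overlapping locus reached 10 RPKM in EM1084 beside LOC_Os04g42590 and LOC_Os08g42750 only.

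Lists of seed genes written by locus from general knowledge of rice, which neither table annotates, held few of these genes. Of 13 loci listed as heat shock proteins, which hold other proteins in a soluble state, 1 was in the set, LOC_Os01g04380, with 13.5 ± 1.43 RPKM in EM1084, 0.510 ± 0.0488 in the complemented line and 0.290 ± 0.309 in wild type. The list as a whole summed to 951 to 1021 RPKM in EM1084, 1062 to 1100 RPKM in the complemented line and 1032 to 1165 RPKM in wild type. Most of that sum came from LOC_Os11g47760, and the other 12 loci summed to 228 to 266 RPKM in EM1084, 279 to 344 RPKM in the complemented line and 69.2 to 74.5 RPKM in wild type. Of the 11 heat shock loci tested, 5 had an EM1084 mean of at least 4 times wild type and 1 of at least 4 times the complemented line. Over all genes tested these shares were 32.0% and 4.20%. None of 15 listed loci of ER folding and the unfolded protein response was in the set, although the list summed to 4816 to 5430 RPKM in EM1084, 1246 to 1442 RPKM in the complemented line and 2597 to 2884 RPKM in wild type. Of its 13 loci tested, 4 had an EM1084 mean of at least 4 times wild type and 4 of at least 4 times the complemented line. Much of the wild type sum came from LOC_Os02g02410, with 1637 ± 111 RPKM in EM1084, 313 ± 28.0 in the complemented line and 1866 ± 106 in wild type. LOC_Os11g09280 went another way, with 2052 ± 164, 561 ± 43.2 and 487 ± 22.6 RPKM in the same order. Between the complemented line and wild type, 6 of the 13 were called higher and 4 lower (limma, RPKM as deposited). Over all genes tested, 72.0% were called higher and 7.37% lower, shares that changed with scaling.

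The markers of seed parts held no member either. The 12 starchy endosperm loci summed to 44998 to 46669 RPKM in EM1084, 95411 to 99815 RPKM in the complemented line and 78207 to 87559 RPKM in wild type, with none at 0. Without the 3 most abundant, LOC_Os01g55690, LOC_Os10g26060 and LOC_Os05g41970, the other 9 summed to 8071 to 8330 RPKM in EM1084, 8981 to 9851 RPKM in the complemented line and 6187 to 6906 RPKM in wild type. The 9 embryo and aleurone loci summed to 1665 to 1980 RPKM in EM1084, 1809 to 2246 RPKM in the complemented line and 1375 to 1506 RPKM in wild type, again with none at 0. The members of this list went different ways. LOC_Os03g49190 averaged 986 ± 83.2 RPKM in EM1084, 876 ± 149 in the complemented line and 66.5 ± 2.84 in wild type, while LOC_Os11g26780 averaged 4.004 ± 0.739 RPKM in EM1084, 15.9 ± 1.105 in the complemented line and 236 ± 26.5 in wild type. Between the complemented line and wild type, 4 of its 8 loci tested were called higher and 4 lower (limma, RPKM as deposited). The shares over all genes tested were 72.0% higher and 7.37% lower, and they changed with scaling. The 12 green tissue loci in the table summed to 6.35 to 9.26 RPKM in EM1084, 6.22 to 8.71 RPKM in the complemented line and 4.48 to 5.76 RPKM in wild type, close to 0 in all genotypes, with 2 loci at 0 in the complemented line and 1 in wild type. Of 7 alpha-amylase loci listed, the 3 in the table summed to 7.65 to 9.03 RPKM in EM1084, 3.93 to 5.82 RPKM in the complemented line and 0.972 to 2.82 RPKM in wild type. Most of that sum came from LOC_Os08g36900, with means of 7.77, 3.94 and 1.45 RPKM in the same order. LOC_Os09g28420 went another way, with 0.329, 1.13 and 0.410 RPKM. The 4 common reference genes summed to 1014 to 1026 RPKM in EM1084, 719 to 785 RPKM in the complemented line and 579 to 686 RPKM in wild type. The part of these lists in the levels of the 193 genes was not tested.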

How the data were processed

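The authors deposited 1 table of RPKM values for 31263 loci, with 1 column per library and no further scaling, per the file headers. The ScriptSeq v2 kit was used on total RNA, per the labels' protocols. The sources used here give no aligner, counter or genome build, so positions are printed as the table has them. RPKM of a locus step in whole reads, so mapped totals, transcript lengths and read numbers were derived. All 281367 values were whole within 0.001 reads, but the lengths were chosen to make them whole, so this does not test the derivation. A derived length may be a divisor of the true one, so read numbers are minimum values.

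Values were fitted as log2(RPKM + 1) with limma 3.58.1, using its trend and robust options, under R 4.3.3, over all 9 libraries, for 15450 genes with at least 1 RPKM in at least 3 libraries, which all 193 members passed. Tests were two-sided with Benjamini-Hochberg adjustment over all genes tested, and ± is the SD over n = 3. The fit was also run on simulated reads, with the complemented line and wild type alike apart from seeded loci. That setting held no general shift between genotypes, so it does not bear on the dependence on scaling. Groups come from the sample titles. Nothing says that repeats were separate plants, so p-values measure the spread between these libraries. Same-numbered libraries did not deviate together (correlations of -0.0257 to 0.0601).

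Genes were named by rule: the 12 highest EM1084 means, the 8 largest ratios, loci at the limits, neighbours, the 5 smallest adjusted p in each direction, and list members. Not all are printed, and copies and overlaps were added after the values were seen. The members and lists were chosen with earlier results of these data known. Alternatives were other scalings, pseudocounts, filters, limits and left-out libraries. Promoter motifs were not searched, since no sequence was used here.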

Additional observations from a re-analysis of the deposited data

How the results depend on the processing

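The number of genes meeting the conditions depended on scaling and limits. It was 193 as reported, 67 under median-of-ratios scaling, 74 with quantiles made equal and 97 with library totals outside the 100 most abundant loci. It was 352 with a fold of at least 3, 101 with a fold of at least 6, and 116 with an EM1084 mean of at least 20 RPKM. Leaving out 1 library gave 187 to 202 genes. For the complemented line against wild type, the genes called higher numbered 117, but 44 after median-of-ratios scaling and 41 with equal quantiles. Those called lower numbered 16, but 52 and 56 under the same scalings, and 33 outside the most abundant loci, which are 26.9%, 29.0% and 17.1% of the set against 26.5%, 25.1% and 15.6% of all genes tested. Leaving out 1 library gave 107 to 118 higher and 16 to 17 lower. The genes behind these counts were not always the same. Without wild type library 1, 16 were called lower although LOC_Os02g44530 and LOC_Os01g12720 lost the call, so other genes entered. The 16 called lower were kept under all 3 scalings. Each of these lowered the complemented line relative to wild type, so keeping the calls is no support for them. The fit with a replicate block gave 116 higher and 16 lower. Limma-voom on the derived reads, chosen after seeing the data, gave 106 and 15. Counting once the 2 pairs with the same length and similar EM1084 levels, also chosen then, left 191 genes. Of 420 values of 21 genes (the 16 called lower and 5 called higher), recomputed under these settings, 412 kept direction and call, 8 lost the call and none changed direction. The calls of the 16 under the 3 scalings are among the 412. Wild type depth limits the genes under 1 RPKM.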
